A study of Mus musculus with 10 samples.

Results

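This account covers 10 immediate-early response genes in mouse testis: Fos, Fosb, Jun, Junb, Jund, Egr1, Atf3, Ier2, Zfp36 and Dusp1. They were taken by gene name from the deposited count table, where each name matched 1 row of 30719, and all 10 passed the filter on low counts. Testes came from mice at postnatal day 10, labelled either wild-type (WT) or FXR-/-, the latter for loss of the bile acid receptor FXRα, which Nr1h4 encodes. Each genotype had 5 mice with 1 library each, numbered 3, 4, 5, 6 and 9 in WT and 8 to 12 in FXR-/-. The labels give every mouse a background of 129sv and C57Bl in equal parts, with a number after C57Bl that differs in every label and runs on from mouse to mouse, and RNA came from whole frozen testis. The labels name no part of Nr1h4 as removed and no cell type to which the loss was limited. No member lies on chromosome 10, which holds Nr1h4.

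Immediate-early genes are transcribed within minutes of a growth factor, hormone or stress signal, from factors already present in the cell, and most of their transcripts are short-lived. Serum response factor, which binds the CArG box, and CREB-type factors, which bind TGACGTCA or its core TGACGT, carry the signals of MAP kinases and cyclic AMP to their promoters. Fos and Jun family proteins pair into the AP-1 transcription factor, and Jun proteins can also pair with each other or with ATF proteins. In testis, gonadotropins and growth factors are known to induce several of them in cultured Sertoli and Leydig cells, and male mice lacking Jund are known to become infertile.

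Promoter windows in RefSeq's table (build GRCm38.p6, 250 bases before to 50 after the start site) matched 8 of the 10 genes, all but Egr1 and Ier2. The stretches below come from these windows, and they are shown because they hold the signal-response motifs searched for, or, for Jun, because the gene differed between the genotypes. Capitals mark matches to a motif on either strand, and distances count from the start site as 0. Where GENCODE M21 places an alternative first exon over the window, only a short stretch or the part outside that exon is given.
Fos (chr12:85473740-85473889, plus strand): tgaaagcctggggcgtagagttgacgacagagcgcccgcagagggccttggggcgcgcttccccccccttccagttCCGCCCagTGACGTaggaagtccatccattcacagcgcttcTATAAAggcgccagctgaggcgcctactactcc
Jun (chr4:95052223-95052372, minus strand): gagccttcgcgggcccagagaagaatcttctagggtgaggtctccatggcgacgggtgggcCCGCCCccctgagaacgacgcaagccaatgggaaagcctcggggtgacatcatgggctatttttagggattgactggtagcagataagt
Dusp1 (chr17:26508521-26508622, minus strand): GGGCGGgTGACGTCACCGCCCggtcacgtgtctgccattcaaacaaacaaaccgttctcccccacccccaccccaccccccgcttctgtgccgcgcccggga
Zfp36 (chr7:28379267-28379296, minus strand): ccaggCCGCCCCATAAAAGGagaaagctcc
Atf3 (chr1:191183334-191183353, minus strand): attaatagcattACGTCAgc

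In the Fos stretch the capitals mark a GGGCGG on the opposite strand, then the core TGACGT at -66 to -61, and last the TATAAA at -33 to -28. Dusp1 held TGACGTCA at -143 to -136, which contains TGACGT on both strands, and a further TGACGT at -191 to -186. Atf3 held TGACGT on the opposite strand at -8 to -3, and Zfp36 a CArG box at -58 to -49 that shares 1 base with a GGGCGG. Over both strands, TGACGT lay in 3 of the 8 windows (Fos, Atf3, Dusp1) against 7.51% of all 32851 windows of this length, TGACGTCA in 1 against 1.79%, and the CArG box in 1 against 1.63%. GGGCGG, the site of SP1-type factors, lay in 6 against 35.7%, and TATAAA in 2 (Fos and Junb) against 13.6%. TGACTCA, a site AP-1 binds, and CCGGAAGT, a site of ETS-type factors, were found in 0 of the 8, against 5.20% and 3.89%. Only exact matches were counted, so variants such as tgacatca in the Jun stretch were not, and a lack of AP-1 sites cannot be read from this. The Jund window held 0 of the motifs, and its RefSeq start lies 1210 bases from the coding start in GENCODE. A match is a description of letters in these windows only, and sequence farther from the start sites was not searched.

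Levels of the 10 genes are compared here per length, as CPM (a gene's share of a library's counts, scaled by trimmed-mean factors to the usual fixed total) per kilobase of GENCODE exons. In WT the highest level was that of Jund, at 84.1 ± 9.42 CPM per kilobase, followed by Jun at 28.7 ± 3.52, Ier2 at 17.6 ± 1.98 and Egr1 at 9.39 ± 1.71 (SD, n = 5 each). These 4 stood in this order in all 5 WT mice, and the libraries of neighbours in the order did not overlap. Atf3 (3.86 ± 0.438), Dusp1 (3.79 ± 0.267), Zfp36 (3.67 ± 0.416) and Junb (3.07 ± 0.544) followed within each other's spread. Junb overlapped Fos (2.15 ± 0.25) as well, although it was the higher of the pair in all 5 WT mice. Fosb was lowest, at 0.200 ± 0.0201 CPM per kilobase in WT. In FXR-/- the first 4 and the last 3 kept their places, while Dusp1 (4.505 ± 0.702) stood above Zfp36 and Atf3 (3.22 ± 0.732) below it. Lengths join the exons of all transcripts of a gene, 6243 bases for Fosb against 1522 to 4484 for the others, which can lower the value of a gene with many transcripts. For Jund 1668 bases were used, while its RefSeq start lies 1210 bases from the GENCODE coding start. An antisense gene shares 877 of the 1668 bases. Annotation and strand use in counting are not given, so the Jund level may be too high.

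**Figure D1:**
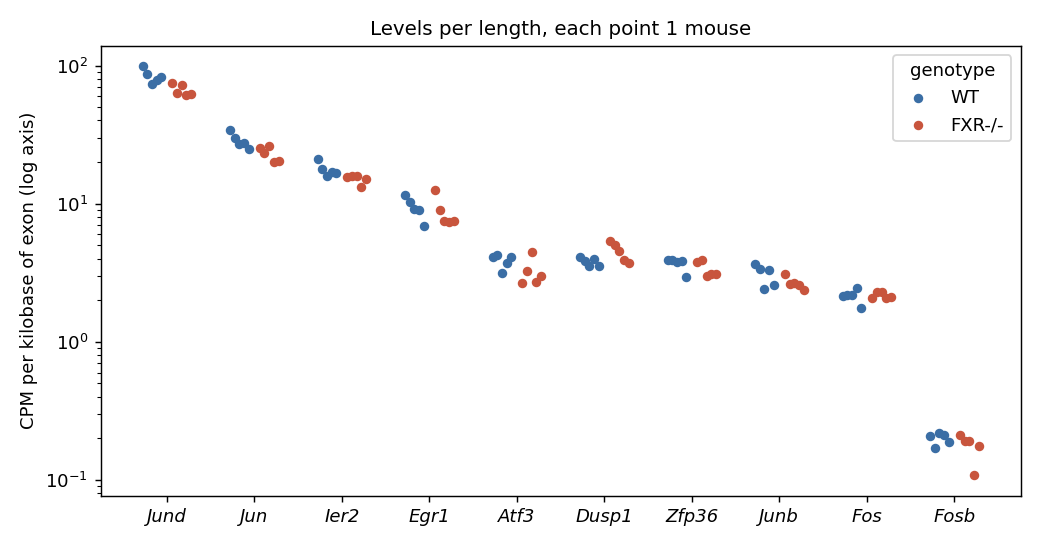
Level of each gene in CPM per kilobase of exon on a log axis, with 1 point per mouse and colours for the genotypes (5 mice each). Jund, Jun, Ier2 and Egr1 lie apart from each other in WT, Atf3, Dusp1, Zfp36 and Junb lie together, and Fosb is lowest at 0.200 in WT.

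Libraries held 32330029 to 39655170 counts. Nr1h4 itself had 13 to 26 counts in WT and 8 to 13 in FXR-/-, so that reads were still counted in every library labelled FXR-/-. It fell 1.79-fold (edgeR adjusted p = 0.0347), and since the deleted part of the gene is not named, these counts do not check the labels. Mitochondrial genes took 1.81 to 1.998% of counts in WT and 1.96 to 2.36% in FXR-/-. Markers of Sertoli, germ, Leydig, peritubular, endothelial and immune cells were detected in all libraries, and none was at 0. Of 12 duct epithelium markers 9 rose, with summed CPM of 107 to 136 in WT and 168 to 229 in FXR-/-, and of 11 adipocyte markers 9 rose (77.1 to 226 and 215 to 1296 CPM). A gene is called changed, or said to rise or fall, under an adjusted p of 0.05 in edgeR's quasi-likelihood test over all 18559 genes that passed the filter.

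Across the genotypes, 2 of the 10 genes fell, Jun and Jund, and 8 did not pass by edgeR. Jun fell 1.246-fold and Jund 1.26-fold. Of all tested genes 13.9% were called in either direction and 7.71% fell, so the members' 2 of 10 is 20% beside 13.9%. Fitted changes lay below 0 in 8 of the 10, with a median log2 fold change of -0.19, against 46.7% of all tested genes and a median of 0.01. Of the 8 without a call, Ier2 and Dusp1 had an unadjusted edgeR p under 0.05. Together with the called Jun and Jund, they stand beside 29.97% of all tested genes, a share that includes called genes. The share of calls that were rises depended on scaling, at 44.5% with trimmed-mean factors, 53.0% with upper-quartile factors and 61.5% with library totals, and the fitted directions of the 10 genes were the same under each of these.

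**Figure D2:**
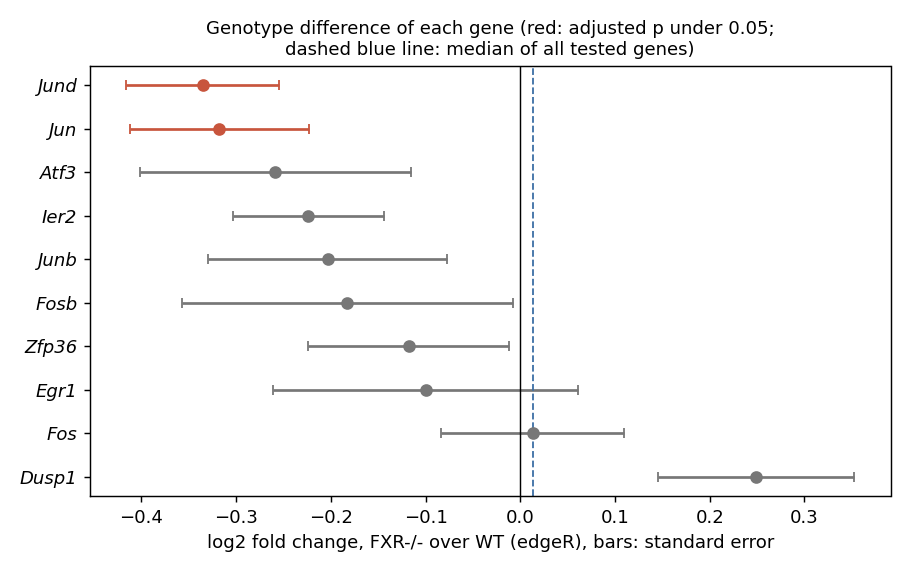
Log2 fold change of each gene, FXR-/- over WT, from edgeR, with bars for the standard error, red for an adjusted p under 0.05 and a dashed line at the median of all tested genes (0.01). Jund (-0.34) and Jun (-0.32) are the 2 in red, and Dusp1 (0.25) is at the opposite end.

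Jun (ENSMUSG00000052684, chr4:95049034-95052222, minus strand, 1 exon) encodes c-Jun, the most strongly activating of the Jun proteins. Its CPM in WT mice 3, 4, 5, 6 and 9 was 109, 94.8, 85.9, 87.9 and 79.4, and in FXR-/- mice 8 to 12 it was 81.0, 73.9, 82.9, 64.1 and 64.9. WT mouse 3 was highest and FXR-/- mice 11 and 12 lowest, and only WT mouse 9 lay within the FXR-/- range. The mean went from 91.4 ± 11.2 to 73.3 ± 8.74 CPM (SD, n = 5 each), a log2 fold change of -0.32 (SE 0.0944, edgeR adjusted p = 0.0440). This call was close to the threshold and was lost without any 1 of WT mice 3, 4, 5 and 6 or FXR-/- mice 9, 11 and 12 (edgeR adjusted p up to 0.108), while the log2 fold change stayed between -0.37 and -0.25. It was also lost with upper-quartile factors (edgeR adjusted p = 0.0556), with library totals (0.0636) and without the filter on low counts (0.0502). An antisense gene, Junos, shares 232 of the 3189 exonic bases of Jun, but held only 42 to 70 counts against 2462 to 3620 for Jun.

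Jund (ENSMUSG00000071076, chr8:70698949-70700616, plus strand, 1 exon) encodes JunD, the member of the family that is also expressed in resting cells. It stood at 164, 146, 123, 131 and 137 CPM in WT mice 3, 4, 5, 6 and 9 and at 124, 106, 120.3, 102 and 104 CPM in FXR-/- mice 8 to 12. WT mouse 3 was again highest, and the genotypes overlapped only in WT mouse 5 and FXR-/- mouse 8. Its mean went from 140.4 ± 15.7 to 111 ± 10.2 CPM (SD, n = 5 each), a log2 fold change of -0.34 (SE 0.0807, edgeR adjusted p = 0.0192). The call was lost without FXR-/- mouse 11 or 12 (edgeR adjusted p = 0.0549 and 0.0501) and kept without any other single library. With the adipocyte markers as a covariate neither gene passed, at a log2 fold change of -0.33 for Jund and -0.41 for Jun (edgeR adjusted p = 0.135 and 0.110). With the duct epithelium markers, whose sums do not overlap between the genotypes, Jund stood at -0.17 and Jun at -0.088 (edgeR adjusted p = 0.887 and 0.958). Another antisense gene, Gm11175, not analysed here, shares 877 of the 1668 exonic bases of Jund. The use of strand in counting is not given in the sources used here, so reads of Jund and of this neighbour cannot be told apart.

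Junb (ENSMUSG00000052837, chr8:84974484-84978718, minus strand) encodes JunB, which often restrains c-Jun. Its CPM was 8.46, 7.71, 5.55, 7.63 and 5.93 in WT and 7.13, 6.04, 6.15, 5.94 and 5.42 in FXR-/-, in the order of mice given above. The genotypes overlapped widely, with WT mice 5 and 9 inside the FXR-/- range. Junb was not called (log2 fold change -0.20, SE 0.126, edgeR adjusted p = 0.308), and the 95% interval by limma-voom ran from -0.47 to 0.08. Prdx2, which encodes a peroxiredoxin, shares 173 exonic bases with Junb on the opposite strand, held 4593 to 6528 counts and fell (log2 fold change -0.34, edgeR adjusted p = 0.00308), so the value of Junb is uncertain.

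Fos (ENSMUSG00000021250, chr12:85473890-85477273, plus strand), whose product c-Fos pairs with Jun proteins, showed no difference between the genotypes beyond its spread. WT mice 3, 4, 5, 6 and 9 had 5.06, 5.15, 5.17, 5.80 and 4.16 CPM, and FXR-/- mice 8 to 12 had 4.92, 5.38, 5.39, 4.89 and 4.98. All FXR-/- values lay inside the WT range, which was set by mice 6 and 9. The log2 fold change was 0.01 (SE 0.0968, edgeR adjusted p = 0.946), and its 95% interval by limma-voom, -0.19 to 0.23, corresponds to ratios of 0.879 to 1.17. Fosb (ENSMUSG00000003545, chr7:19302696-19310051, minus strand), a close relative with fewer reads, had 26 to 47 counts per library. It stood at 1.246 ± 0.125 CPM in WT and 1.10 ± 0.249 in FXR-/- (SD, n = 5 each), with FXR-/- mouse 11 lowest at 0.677 CPM. Fosb was not called (log2 fold change -0.18, SE 0.175, edgeR adjusted p = 0.523), and its limma-voom interval of -0.61 to 0.18 does not exclude a change of the size seen in Jun.

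**Figure D3:**
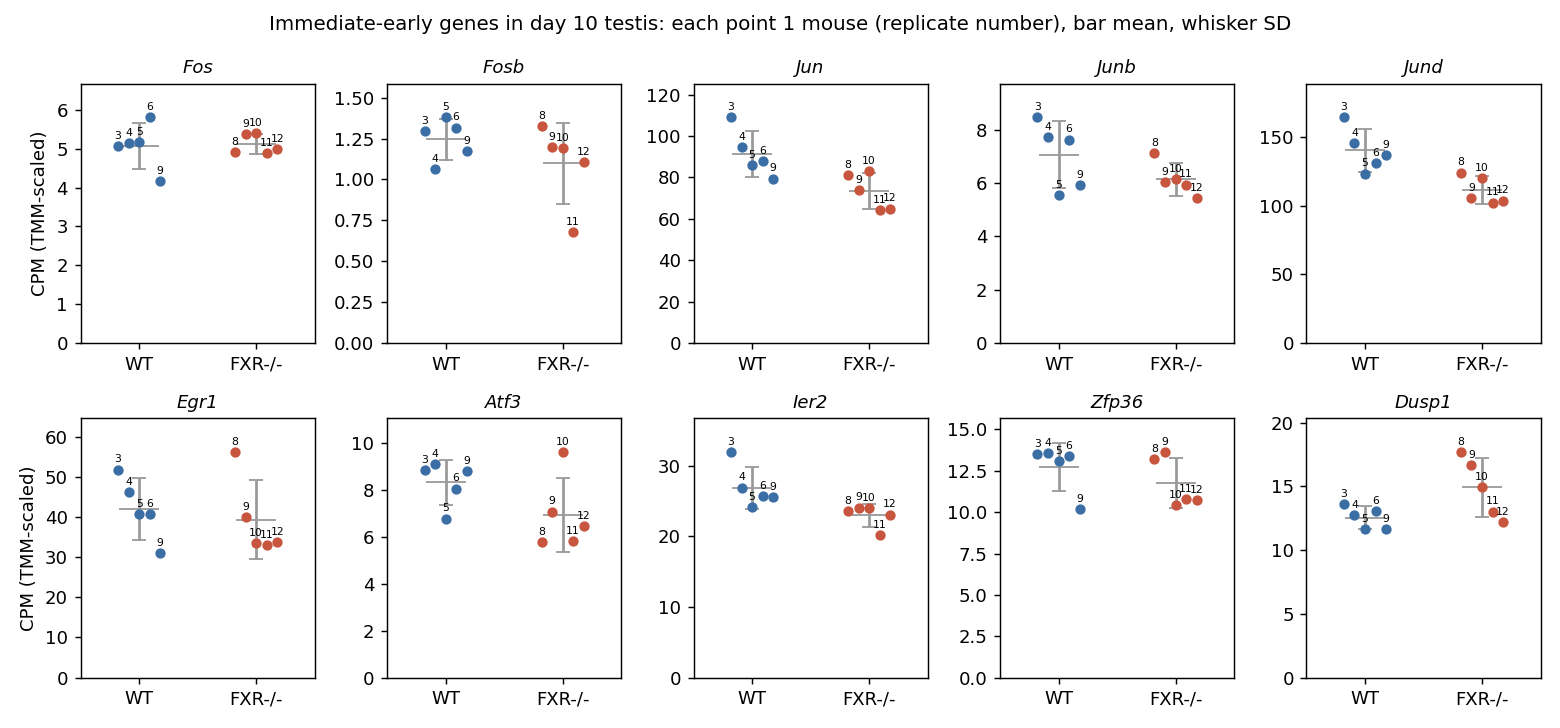
CPM of each of the 10 genes by genotype, with 1 point per mouse marked by its replicate number, a bar for the mean and whiskers for the SD (n = 5 each); every axis starts at 0. Jun and Jund are lower in FXR-/-, Fos is level at about 5 CPM, and Egr1 has its highest value, 56.1 CPM, in FXR-/- mouse 8.

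Summed per length, Jun, Junb and Jund stood at 116 ± 13.0 CPM per kilobase in WT (103.3 to 136) and 92.4 ± 8.92 in FXR-/- (84.0 to 102.9), while Fos and Fosb together stood at 2.35 ± 0.259 and 2.35 ± 0.128 (SD, n = 5 each). The shares of the 3 genes in this sum overlapped between the genotypes. Jund held 72.6 ± 1.34% of it in WT and 72.2 ± 0.920% in FXR-/-, Jun 24.7 ± 1.24% and 24.9 ± 0.971%, and Junb 2.64 ± 0.295% and 2.89 ± 0.173% (SD, n = 5 each). Fos and Fosb amounted to 2.05 ± 0.325% of the Jun family in WT and 2.56 ± 0.214% in FXR-/-, with overlapping ranges of 1.73 to 2.44% and 2.24 to 2.78%. These sums follow from the genes above, carry the limits of the Jund length and overlap, and were not tested.

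Between the genotypes, markers of Sertoli cells, the supporting cells of the tubules, moved in the same direction as Jun and Jund. Of 18 measured Sertoli markers 9 fell and 9 did not pass, with fitted changes below 0 in all 18 and a median of -0.37. Their summed CPM was 6513 to 7676 in WT and 4547 to 6316 in FXR-/-, with 0 markers at 0. Mouse by mouse the order was shared only in part. FXR-/- mice 10, 9, 12 and 11 stood in this order on both measures, with marker sums of 6316, 5905, 5452 and 5426 CPM. Their Jun family levels were 100.8, 89.2, 84.9 and 84.0 CPM per kilobase. WT mice 3 and 4 lay above WT mice 5 and 6 on both. FXR-/- mouse 8 had the lowest marker sum but the highest Jun family level of its genotype, 102.9 CPM per kilobase. WT mouse 9 had the highest marker sum, with a Jun family level of 109.65, against 136 in WT mouse 3. A relation within genotypes was not tested. In whole testis, fewer cells of a type and less RNA per cell cannot be told apart. Leydig cell markers were mixed. Of 10, 3 fell (Hsd3b1, Nr5a1 and Scarb1) and 7 did not pass, with fitted changes below 0 in 7 and a median of -0.29. Star (0.34), Cyp17a1 (0.40) and Hsd17b3 (0.18) lay above 0. Their summed CPM overlapped, at 859 to 1166 in WT and 674 to 1037 in FXR-/-. When the mean of the Sertoli markers was added to the model, which was decided once the values were known, Jun stood at -0.23 (edgeR adjusted p = 0.665) and Jund at -0.28 (0.520). That covariate itself differs between the genotypes, and with it the calls over all genes went from 2576 to 247. With the germ cell markers' mean, also chosen after seeing the data, Jun stood at -0.17 (edgeR adjusted p = 0.0788). Jund kept its call at a smaller log2 fold change of -0.22, against -0.34 without the covariate (edgeR adjusted p = 0.0304 with it). Germ cell markers had sums of 1848 to 2937 CPM in WT and 2460 to 3262 in FXR-/-. Of 17, 3 rose and 14 did not pass, with fitted changes below 0 in 2 and a median of 0.21.

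**Figure D4:**
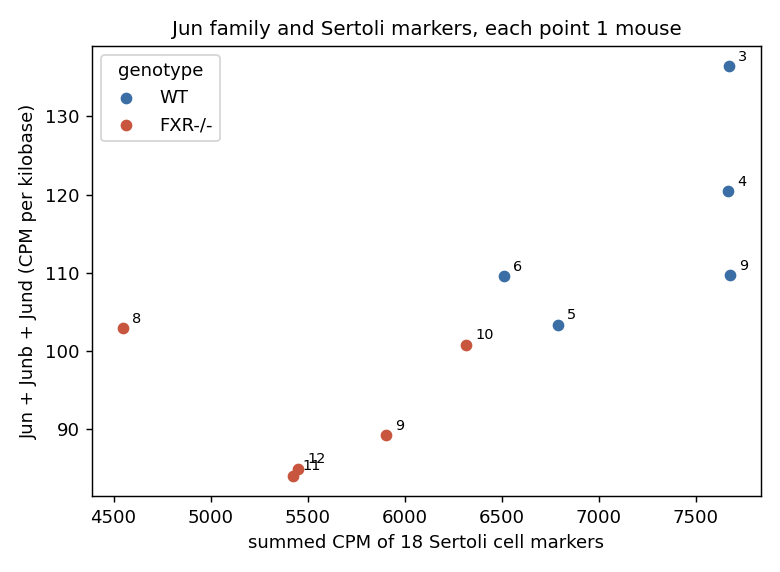
Summed level of Jun, Junb and Jund (CPM per kilobase) against the summed CPM of 18 Sertoli cell markers, with 1 point per mouse marked by its replicate number; neither axis starts at 0. The FXR-/- mice lie at 84.0 to 102.9 on the vertical axis and the WT mice at 103.3 to 136. FXR-/- mouse 8 has the lowest marker sum and the highest Jun family level of its genotype, 102.9, while FXR-/- mice 10, 9, 12 and 11 stand in this order on both axes.

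Egr1 (ENSMUSG00000038418, chr18:34859823-34864984, plus strand), a zinc finger transcription factor induced through serum response factor, had the highest fitted variation between mice of the 10 genes. Its CPM was 51.8, 46.2, 40.8, 40.6 and 31.1 in WT mice 3, 4, 5, 6 and 9 and 56.1, 40.0, 33.5, 33.1 and 33.8 in FXR-/- mice 8 to 12. The highest and the lowest mouse thus came from FXR-/- and WT, and the ratio of highest to lowest was 1.67 within WT and 1.70 within FXR-/-. Egr1 was not called (log2 fold change -0.10, SE 0.161, edgeR adjusted p = 0.724). Its biological coefficient of variation as fitted by edgeR, the spread between mice beyond counting error, was 17.98%, above that of 84.2% of tested genes. Without FXR-/- mouse 8 its log2 fold change was -0.26, still without a call (edgeR adjusted p = 0.186).

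Atf3 (ENSMUSG00000026628, chr1:191170296-191218039, minus strand), a stress-induced partner of Jun proteins, had CPM of 8.82, 9.09, 6.77, 8.05 and 8.80 in WT and 5.78, 7.07, 9.59, 5.81 and 6.45 in FXR-/-. Of the FXR-/- mice, 3 lay below every WT mouse and mouse 10 above every one. Atf3 was not called with all libraries (log2 fold change -0.26, SE 0.143, edgeR adjusted p = 0.249). Without FXR-/- mouse 10 it was, at -0.41 (edgeR adjusted p = 0.0300). Leaving out FXR-/- mouse 9 alone gave no call, at -0.27 (edgeR adjusted p = 0.311). Leaving out both FXR-/- mice 9 and 10 gave a call, at -0.47 (edgeR adjusted p = 0.0259). These are the 2 mice with the highest adipocyte marker sums, 1296 and 845 CPM, and with the adipocyte markers as a covariate Atf3 stood at -0.52 without a call (edgeR adjusted p = 0.154).

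Ier2 (ENSMUSG00000053560, chr8:84661331-84662852, minus strand), a growth factor-induced nuclear protein, was the 1 member of 10 whose genotypes did not overlap, beside 11.6% of all tested genes. It stood at 31.9, 26.9, 24.1, 25.7 and 25.6 CPM in WT and at 23.6, 24.1, 24.1, 20.2 and 23.1 in FXR-/-. The gap was narrow, between 24.13 CPM in WT mouse 5 and 24.09 CPM in FXR-/- mouse 9. Ier2 did not pass in edgeR (log2 fold change -0.22, SE 0.0797, adjusted p = 0.0820) and passed in DESeq2 (adjusted p = 0.0487).

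The last 2 members act after transcription or on the kinases. Zfp36 (ENSMUSG00000044786, chr7:28376784-28380253, minus strand) encodes tristetraprolin, which binds AU-rich elements and hastens the decay of cytokine and immediate-early mRNAs. Its CPM was 13.5, 13.6, 13.1, 13.4 and 10.2 in WT and 13.2, 13.6, 10.4, 10.8 and 10.7 in FXR-/-. Values near 13 and values near 10 occurred in both genotypes, and Zfp36 was not called (log2 fold change -0.12, SE 0.106, edgeR adjusted p = 0.494). Dusp1 (ENSMUSG00000024190, chr17:26505590-26562128, minus strand), a phosphatase that inactivates MAP kinases, had the most positive, though not the largest, fitted log2 fold change of the 10. It stood at 13.6, 12.7, 11.6, 13.1 and 11.7 CPM in WT and at 17.7, 16.7, 14.96, 13.0 and 12.2 in FXR-/-. FXR-/- mice 8, 9 and 10 lay above every WT mouse, and mice 11 and 12 within the WT range. Dusp1 did not pass (log2 fold change 0.25, SE 0.104, edgeR adjusted p = 0.130), and over 23 alternatives its log2 fold change ran from 0.18 to 0.61 with adjusted p from 0.0683 to 0.740.

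Several of the genes were high or low in the same mice. Within WT, mouse 3 had the highest CPM in 6 of the 10 genes, mouse 5 the lowest in 5 and mouse 9 the lowest in 4. Within FXR-/-, mouse 8 was highest in 5 and mouse 11 lowest in 6. After subtracting each genotype's mean, the log2 CPM of the 45 pairs of genes had a median Pearson r of 0.49 over the 10 libraries, with 42 above 0, a comparison chosen after seeing the data. Of these pairs, 12 had an unadjusted p under 0.05, and Junb with Dusp1 alone passed after adjustment over the 45 (r = 0.72, permutation p = 5.5e-04 within genotypes, adjusted 0.0247). By rank this pair did not pass (Spearman rho = 0.75, permutation p = 0.00328, adjusted 0.0803), and without the 2 libraries farthest in Junb r was 0.74. Jun with Jund had r = 0.86 and rho = 0.77 (permutation p = 0.00694 and 0.0223, adjusted 0.0781 and 0.138), and 0.72 without the 2 farthest in Jun. The values of a library share its depth, scaling and cell make-up.

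No relation of Fos with the other 9 genes passed. Over all 10 libraries its r ran from -0.099 (Jund) to 0.53 (Zfp36), and from -0.055 to 0.60 with genotype means subtracted (smallest pooled permutation p = 0.104, adjusted 0.830 over the 9). Its rho with Zfp36 was 0.41 (permutation p = 0.248, adjusted 0.583), and r with Zfp36 was 0.10 without WT mice 6 and 9, the 2 farthest from the median of Fos. With Atf3 the same leave-out took r from 0.064 to 0.63 and rho from 0.43 to 0.79. That rho did not pass after adjustment (permutation p = 0.0281, adjusted 0.253). Among 13929 other named genes with at least 1 CPM, the 5 most like the members' mean after subtraction of genotype means were Kdelr3 (r = 0.99), Hspa12b (0.97), Tpi1 (0.95), Filip1l (0.95) and Qprt (0.95), over 10 libraries. They were picked for this likeness, none was called between the genotypes, and the values are a description.

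**Figure D5:**
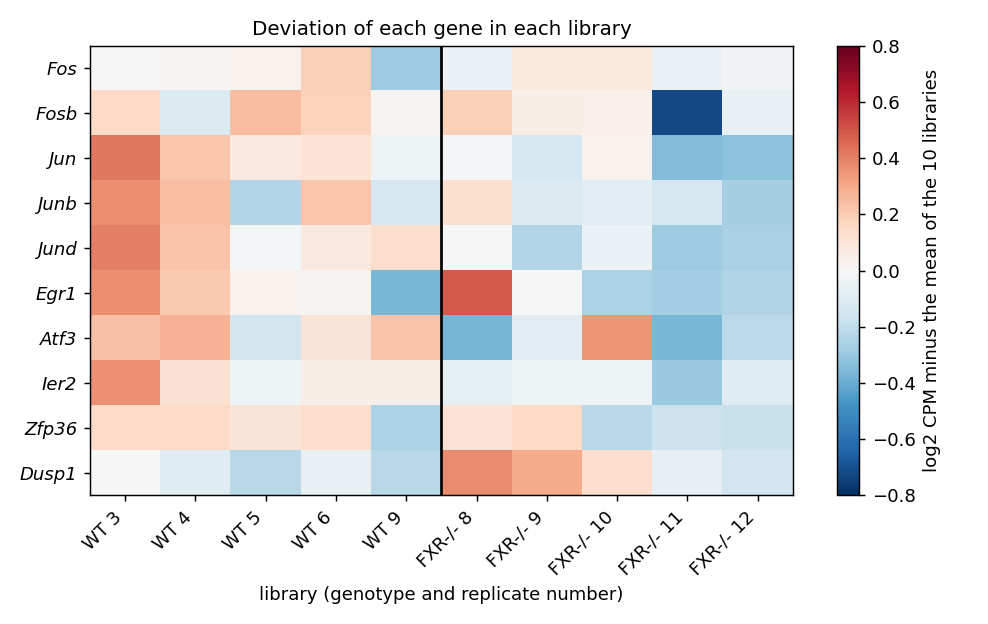
Log2 CPM of each gene in each library minus its mean over the 10 libraries, in colour from blue (lower) to red (higher), with a line between the 5 WT and the 5 FXR-/- libraries. WT 3 is highest of its genotype in 6 of the 10 genes and FXR-/- 11 lowest of its genotype in 6.

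Other immediate-early genes were counted in the same way. Of 22 further immediate-early transcription factors, 3 fell and 19 did not pass (13.6% called, beside 13.9% of all tested genes), with a median log2 fold change of -0.03. Arid5b, a DNA-binding factor of mesenchymal and fat cells, fell from 41.7 ± 4.96 CPM in WT to 30.6 ± 2.47 in FXR-/-, and Klf6, a Krüppel-like factor, from 95.9 ± 4.49 to 78.8 ± 9.25 (SD, n = 5 each, with edgeR adjusted p = 0.00592 and 0.0256). Nr4a2, an orphan nuclear receptor, fell from 5.07 ± 0.303 CPM to 3.75 ± 0.677 (SD, n = 5 each, with edgeR adjusted p = 0.0420). The 5 values of each genotype did not overlap in any of these 3, which were named for a call on the same values. In the list 3 of 22 did not overlap, beside 11.6% of all tested genes. Arid5b kept its call without any single library, Klf6 lost it without WT mouse 4 or FXR-/- mouse 11 or 12, and Nr4a2 kept it only without FXR-/- mouse 8 or 9.

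Of 28 other immediate-early proteins, 26 were tested and 1 fell, beside 7.71% of all tested genes, with a median log2 fold change of -0.02. The 1 was Rhob, a small GTPase, at 144 ± 6.92 CPM in WT and 122 ± 14.5 in FXR-/- (SD, n = 5 each, with edgeR adjusted p = 0.0469), a call kept only without FXR-/- mouse 8 or 9 when single libraries were left out.

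Partners and upstream signals were counted beside the same 13.9% of all tested genes called, and no difference from that share was tested. Among 21 tested AP-1 partner bZIP factors, 4 fell and 17 did not pass, with a median of -0.11. Nfe2l1, a regulator of proteasome genes, fell from 390.1 ± 6.11 CPM in WT to 317 ± 10.3 in FXR-/- (SD, n = 5 each, with edgeR adjusted p = 2.56e-04). Its genotypes did not overlap, which held for 11.6% of all tested genes, and it kept its call without any single library. Creb3 (1.28-fold) and Atf6 (1.12-fold), both bound to the endoplasmic reticulum membrane before activation, fell as well and lost their calls without any 1 of 5 and 6 libraries. These included WT mouse 4 and FXR-/- mice 11 and 12 in both cases, with WT mice 3 and 9 for Creb3, and WT mice 5 and 6 and FXR-/- mouse 9 for Atf6.

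Of 30 genes of serum response factor and MAP kinase signalling, 4 fell, 1 rose and 25 did not pass, with a median of -0.01. Mapk3, which encodes the kinase ERK1, fell from 146 ± 6.13 CPM to 119 ± 6.84 and Mapk10, which encodes the Jun kinase JNK3, rose from 11.2 ± 0.90 to 14.3 ± 1.18 (SD, n = 5 each, with edgeR adjusted p = 0.00272 and 0.0147). Both kept their calls without any single library, and Mapk10 lost its call without both FXR-/- mice 9 and 10. Elk1, a cofactor of serum response factor, fell 1.11-fold and Rps6ka4, the kinase MSK2, 1.22-fold, as did Mapk9, the kinase JNK2 (1.21-fold), named after its values were seen. These 3 calls were lost with library totals as scaling and without any 1 of 7 to 9 libraries, among which WT mice 3, 4 and 5 and FXR-/- mice 9, 11 and 12 were common to all 3.

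Among relatives of the last 2 members, 1 of 9 other MAP kinase phosphatases was called, Dusp16, which fell 1.14-fold (edgeR adjusted p = 0.0364), and the list's median was 0.07, beside 13.9% called and 7.71% lower among all tested genes. Of 12 tested genes listed for AU-rich element binding and mRNA decay, Dcp2, the decapping enzyme, fell 1.09-fold (edgeR adjusted p = 0.0258) and 11 did not pass. Tnfaip8, an entry of that list, has no such known role. Dusp16 lost its call without any single WT library or FXR-/- mouse 9, 11 or 12, and Dcp2 without WT mouse 4, 5 or 6 or FXR-/- mouse 9, 11 or 12. Every call named in these 6 lists was lost with the Sertoli and with the duct epithelium covariate, under which 247 and 32 genes were called in all. The adipocyte covariate ended the calls of Nr4a2, Rhob, Atf6, Elk1, Mapk10, Rps6ka4, Dusp16 and Dcp2, and the germ cell covariate those of Nr4a2, Klf6, Rhob, Atf6, Creb3, Elk1, Mapk9, Rps6ka4 and Dusp16. Library totals also ended those of Nr4a2, Rhob, Atf6, Dusp16 and Dcp2, upper-quartile factors those of Rhob, Elk1, Mapk9 and Dusp16, and testing without the filter on low counts those of Nr4a2, Rhob, Atf6, Elk1, Dusp16 and Dcp2. Rhob lost its call with the stricter filter as well, and Nr4a2, Rhob, Creb3 and Mapk9 changed sign in 1 of the 23 alternatives.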

How the data were processed

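Testis RNA of 10 mice was sequenced from TruSeq libraries of total RNA, per the labels' protocols. The submitters' processing notes list FastQC 0.10.1, CASAVA, Bowtie, TopHat2 2.0.10, Bowtie2 2.1.0 and mm10, with no role or order. Which read counter, annotation and strand setting were used is not given in the sources used here. Raw counts per gene, as the authors deposited them, were the starting point. The table's 20 normalized columns, whose decimal marks were lost, were not used. Samples were grouped by genotype as the labels give it, and the members and lists were chosen with earlier results of these data known.

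Genes passing filterByExpr (18559) received TMM factors. The test was that of edgeR 4.0.16 in R 4.3.3 (quasi-likelihood F-test, two-sided, genotype only, Benjamini-Hochberg over all tested genes). On simulated counts the step recovered 14 of 50 genes changed 1.25-fold, 25 of 50 changed 1.5-fold and 43 of 50 changed 2-fold. It made 5 false calls among 135. A gene that did not pass may thus still differ by a small fold. SE is the log2 fold change divided by the root of F. Alternatives were DESeq2 1.42.0, limma-voom (limma 3.58.1), other scalings and filters, covariates and left-out libraries. Correlations used log2 CPM (prior count 2) and 100000 two-sided permutations. Positions, lengths and overlaps came from GENCODE M21 on GRCm38, the build of mm10. All 10 members were named, with up to 4 called genes of each pathway list by smallest p, except 1 gene that is not reported here. P-values between genotypes weigh the difference against the spread between these mice, and permutation p-values concern correlations across the libraries.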

Additional observations from a re-analysis of the deposited data

Results flagged for a closer look

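In 20 sets of 5 mice (10 genes in 2 genotypes), the highest or lowest CPM was compared with its nearest neighbour by Dixon's ratio, and 2 sets had a mouse apart. Chance gives about 1 in 20 such sets. Ier2 stood at 20.2 CPM in FXR-/- mouse 11, against 23.1 CPM in the next lowest FXR-/- mouse. Zfp36 stood at 10.2 CPM in WT mouse 9, against 13.1 CPM in the next lowest WT mouse.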

How the results depend on the processing

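Leaving out single libraries gave 1427 (without FXR-/- mouse 11) to 2867 called genes, including 1601 without WT mouse 4 and 1635 without FXR-/- mouse 12. It was 1258 with the adipocyte markers' mean as a covariate, 32 with the duct epithelium markers' mean and 247 with the Sertoli markers' mean, against 2576. The number of called members, 2 with all libraries, was 0 without FXR-/- mouse 11 or 12 and at most 3 (without FXR-/- mouse 10) over single libraries left out. It was 1 with upper-quartile factors, library totals, no filter or the germ cell markers' mean, and 0 with the adipocyte, duct epithelium or Sertoli markers' mean. The cause was not tested.

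Jun kept its call in 9 of the 23 alternatives and Jund in 18, both with a log2 fold change below 0 in all 23. The Sertoli and germ cell covariates were added after seeing the data. Fos changed sign in 6. Its log2 fold change spanned -0.051 to 0.065 over single libraries left out, and was -0.043 without both FXR-/- mice 9 and 10, -0.078 with the adipocyte and -0.093 with the duct epithelium covariate. With the duct epithelium covariate Fosb (0.86), Egr1 (0.42), Ier2 (0.00020) and Zfp36 (0.085) turned positive, as did Egr1 with the germ cell (0.053) and Atf3 with the Sertoli covariate (0.30). The count of Fos relations that passed was 0 in all 3 of its alternatives. No paired analysis was run, because the replicate numbers come from the sample titles and state no pairing, also where both genotypes have a number 9. Fosb, at 26 to 47 counts, is the member most limited by depth.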

Other observations

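Among heat shock genes, another set of rapidly induced stress genes, 3 of 16 fell and 13 did not pass, beside 7.71% of all tested genes lower, with a median log2 fold change of -0.08. Hspa1a, an inducible HSP70 gene with a near-identical neighbour and therefore uncertain, fell from 10.5 ± 1.07 CPM to 7.25 ± 0.896, and Hsp90ab1, an abundant HSP90 gene, from 1691 ± 29.2 to 1515 ± 47.3 (SD, n = 5 each, with edgeR adjusted p = 0.00649 and 0.0136). Both kept their calls without any single library. Hspb1, a small heat shock protein gene, fell 1.30-fold (edgeR adjusted p = 0.0387) and lost its call without any 1 of WT mice 3, 4 and 6 and FXR-/- mice 8, 9, 11 and 12, without both FXR-/- mice 9 and 10, and with library totals or the germ cell covariate. The 5 values of each genotype did not overlap in any of these 3 genes, which were named for a call on the same values. In the list 3 of 16 did not overlap, beside 11.6% of all tested genes. The calls of these 3 genes were lost with the adipocyte covariate, except that of Hspa1a, and all 3 were lost with the Sertoli and the duct epithelium covariates.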
